A study of Mus musculus with 14 samples.

Results

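Gene expression of dendritic cells was compared with that of cells labelled macrophages, both sorted from mouse bone marrow, in 6 bulk RNA sequencing libraries (3 of each) out of the 14 in the series. The 6 libraries were chosen by their labels, and the comparison covered every gene in the deposited table that holds both populations. All mice carried the Cx3cr1gfp/+ genotype, with GFP in place of a copy of the gene for the chemokine receptor CX3CR1, per the extraction protocol, although the design text of the series calls the mice wild type. Dendritic cells were sorted as GFP-high, MHC class II-high and CD11c-high cells without Gr-1 and B220. The macrophage gate asked for GFP-negative, MHC class II-high and CD169-positive cells, also without Gr-1 and B220. Dendritic cells came from mice given vehicle alone and the macrophage-labelled cells from mice at baseline, so cell type and vehicle cannot be told apart. The vehicle, the ages of the mice, the numbers pooled and whether each library came from its own mouse are not given in the labels, and the p-values below rest on a spread between libraries that may be technical only. The Y-linked gene Ddx3y lay between 27.5 and 61.1 CPM in the 6 libraries and Xist, which silences an X chromosome in female cells, at 1.64 CPM or less (both genes were chosen after their values were seen).

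Dendritic cells take up antigen, display peptides on MHC class II and stimulate T cells. Conventional dendritic cells fall into a cross-presenting type, cDC1, and a type that expresses SIRPα, CD11b and C-type lectins, cDC2. Macrophages clear dead cells, and in bone marrow CD169-positive macrophages surround maturing red cells, recycle iron and help to hold stem cells in the marrow. Most tissue macrophages depend on signals through CSF1R, the receptor for the growth factor M-CSF.

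Values are CPM, counts scaled to a common library size, with no division by gene length, so that levels of different genes compare reads and not transcripts. The 6 libraries held 416308 to 570422 CPM in the 17118 listed genes, and 1 CPM stood for about 33.4 to 75.2 reads, with ranges that overlapped between the populations. Log2 values correlated at 0.961 to 0.975 among dendritic cell libraries, 0.943 to 0.969 among macrophage-labelled libraries and 0.826 to 0.868 between the populations. The dendritic cell columns carry no treatment in their names. Each matched the vehicle library of its own number in the other deposited table, with correlations of 0.990 to 0.991 against at most 0.978 for any other library.

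Of 12233 genes tested, 3777 differed between the populations (30.9%, limma on log2(CPM + 1), Benjamini-Hochberg adjusted p under 0.05). Higher levels in dendritic cells were found for 1205 genes (9.85%) and higher levels in the macrophage-labelled libraries for 2572 (21%). The counts of each list below are to be read beside these shares. Of the 3777, 2820 differed at least 2-fold (900 higher in dendritic cells, 1920 higher in the macrophage-labelled libraries). The median log2 difference of all genes tested, dendritic cells minus macrophage-labelled libraries, was −0.26, and the split of calls depends on the scaling. With each library centred on its median, 2153 genes were higher in dendritic cells and 1888 in the macrophage-labelled libraries, with quantile normalization 1928 and 1932, and with libraries rescaled to a common total 1360 and 3906. Without macrophage replicate 1, with the same genes tested, 1589 genes were higher in the macrophage-labelled libraries. Genes were tested where at least 3 of the 6 libraries reached 1 CPM. Of those tested, 89 reached 1 CPM in dendritic cell libraries alone and 550 in macrophage-labelled libraries alone. Such genes passed the filter only through the population where they are high, so their groups could not overlap and their direction was fixed. Not all of them were called, and a call among them is no support for a direction. They are counted beside the lists that hold more than 2. The groups did not overlap in 5374 of the genes tested (43.9%). No gene called both as deposited and under an alternative changed direction. Alternatives in the filter, the trend, the replicate block and the monocytes in the fit leave the log2 difference as it was, so direction could not change there. The plot of mean levels shows the widest separations at Cd209a, Ctsk and Clec10a on the dendritic cell side and at Jchain, Hlf and Adgrg1 on the other.

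**Figure D1:**
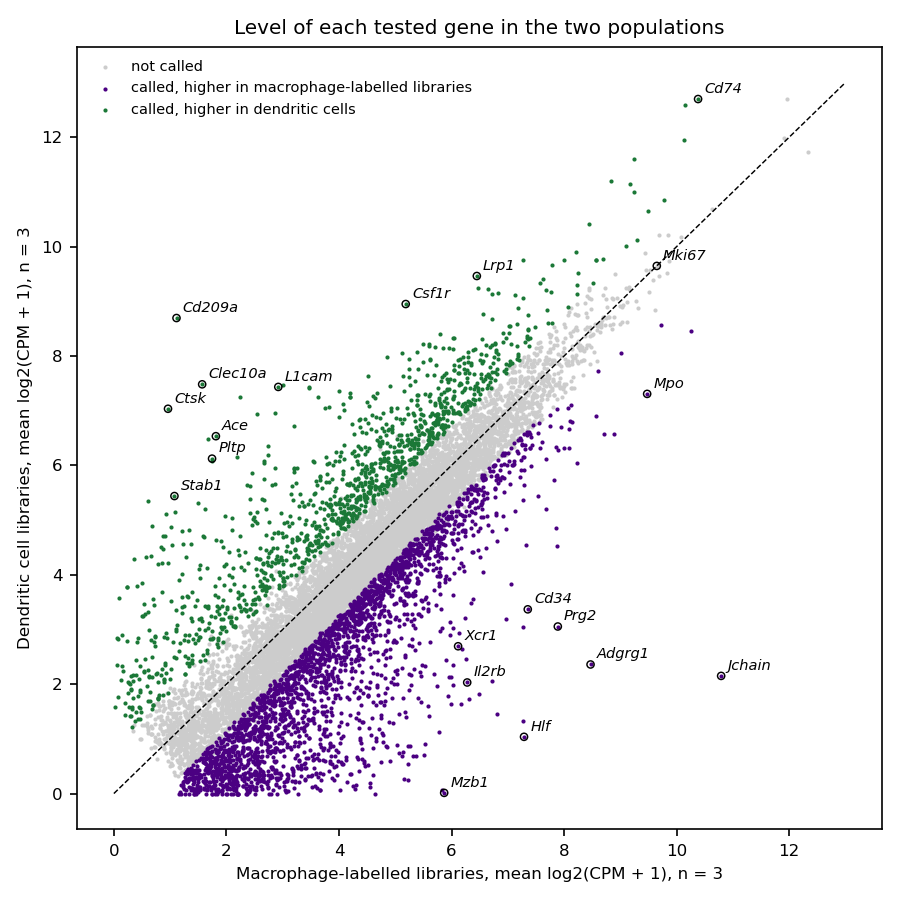
Mean log2(CPM + 1) of each of the 12233 genes tested in the 3 macrophage-labelled libraries (horizontal axis) and in the 3 dendritic cell libraries (vertical axis), with the 1205 genes called higher in dendritic cells in green, the 2572 called higher in the macrophage-labelled libraries in purple, the others in grey, equal levels as a dashed line and selected genes circled. Cd209a, Ctsk and Clec10a stand far above the line and Jchain, Hlf and Adgrg1 far below it.

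The genes behind the sorting markers were examined first. They are a description, since the gates differed in GFP, CD11c and CD169. Cx3cr1 stood at 107, 172 and 189 CPM in the dendritic cell libraries and 5.06, 1.54 and 5.90 CPM in the macrophage-labelled libraries, in the direction of the GFP gates. Itgax, which encodes CD11c, stood at 266, 282 and 177 CPM in the dendritic cell libraries and 48.7, 72.4 and 23.8 CPM in the macrophage-labelled libraries. Siglec1 encodes CD169, the marker on which the macrophage gate rests, and its values were 42.5, 59.4 and 32.1 CPM in the dendritic cell libraries and 18.9, 18.6 and 25.2 CPM in the macrophage-labelled libraries. The 3 dendritic cell libraries thus lay above the 3 macrophage-labelled libraries for the transcript of a protein that only the macrophage gate asked for. Ptprc, the leukocyte antigen CD45, was chosen with the gate genes and stood at 549, 637 and 709 CPM against 309, 331 and 264 CPM (log2 difference 1.06 ± 0.28 SE, limma adjusted p = 0.0067). Of the genes of the Gr-1 antigen, Ly6c2 stood at 23.2, 49.3 and 43.2 CPM against 82.2, 34.5 and 137 CPM and did not pass the test, and Ly6g stayed at or under 0.639 CPM in every library.

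The macrophage label was then set beside a list of 24 core macrophage genes, of which 21 were tested. Most members lay opposite to the label: 16 of the 21 were higher in dendritic cells and 1 was higher in the macrophage-labelled libraries, with a median log2 difference of 1.83. This list, like the others, was chosen with earlier results of these data known. Its counts are a description and no independent test of the label. In a bulk sort such as this, fewer cells of a type and less RNA per cell cannot be told apart. With any 1 library left out and the same genes tested, 15 to 17 of the 21 were higher in dendritic cells. Csf1r stood at 444, 634 and 427 CPM in the dendritic cell libraries and 33.6, 24.9 and 52.9 CPM in the macrophage-labelled libraries, a log2 difference of 3.76 ± 0.30 (SE, limma adjusted p = 3.8e-08). Its groups did not overlap, as in 43.9% of all genes tested. Adgre1, which encodes the macrophage antigen F4/80, stood at 123, 144 and 99.6 CPM in the dendritic cell libraries and 16.2, 22.9 and 32.6 CPM in the macrophage-labelled libraries, and its log2 difference was 2.34 ± 0.28 (SE, limma adjusted p = 3.9e-06). Mrc1, the mannose receptor gene, stood at 232, 291 and 212 CPM against 47.7, 34.7 and 67.98 CPM (Adgre1 and Mrc1 were chosen after their values were seen). The endosomal glycoprotein gene Cd68 stood at 118, 185 and 167 CPM against 23.8, 23.5 and 22.3 CPM and the phospholipid transfer protein gene Pltp at 85.3, 76.04 and 49.9 CPM against 1.70, 1.31 and 5.04 CPM. The log2 differences were 2.68 ± 0.26 for Cd68, 4.38 ± 0.34 for Pltp and 4.36 ± 0.40 for the scavenger receptor Stab1, which stayed under 2.77 CPM in the macrophage-labelled libraries. Apoe, a lipoprotein component, stood at 457, 787 and 516 CPM against 116, 99.4 and 123 CPM. The exception was Timd4, a receptor for dying cells on resident macrophages, at 0.587, 0.686 and 0.409 CPM against 2.12, 6.19 and 3.29 CPM (log2 difference −1.56 ± 0.34 SE, limma adjusted p = 0.0017, chosen after its values were seen), and with quantile normalization its limma adjusted p was 0.101. Timd4 reached 1 CPM in the macrophage-labelled libraries alone, so it passed the filter only through them and its direction was fixed. Among the 4 that did not pass was Mertk, a receptor for dying cells, at 13.4, 35.7 and 22.4 CPM against 15.9, 11.6 and 14.1 CPM, chosen after its values were seen. The libraries are called macrophage-labelled throughout, and directions drawn from them are those of the sort.

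Genes of macrophages that support red cell formation and recycle iron were examined as a separate list of 19, all tested. Higher levels in dendritic cells were found for 7 and higher levels in the macrophage-labelled libraries for 3, and 9 did not pass the test. Spic, the transcription factor of iron-recycling macrophages, stood at 6.31, 8.52 and 7.18 CPM against 5.77, 4.08 and 7.04 CPM and did not pass (adjusted p = 0.4 by limma). Vcam1, the adhesion molecule of these cells, stood at 29.2, 121 and 79.1 CPM against 100.2, 61.3 and 109 CPM, with overlapping groups (adjusted p = 0.45 by limma). Both genes were chosen after their values were seen. Hpgd, which degrades prostaglandins, was higher in dendritic cells at 49.6, 55.99 and 80.3 CPM against 6.07, 8.41 and 12.05 CPM (log2 difference 2.69 ± 0.29 SE, limma adjusted p = 1.1e-06), and so was Trf, which encodes the iron carrier transferrin, at 353, 444 and 434 CPM against 112, 111 and 91.3 CPM. The 3 of the opposite direction (15.8%, against 21% of all genes tested) were Epor, Icam4 and Cd5l. Of these, Epor and Icam4 passed the filter through the macrophage-labelled libraries alone, so their direction was fixed. Epor, the erythropoietin receptor gene, stood at 0.056, 0.739 and 0.766 CPM against 3.74, 3.76 and 8.51 CPM, and Cd5l, a secreted scavenger protein gene of tissue macrophages, at 5.36, 6.30 and 1.33 CPM against 15.5, 14.2 and 19.5 CPM.

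**Figure D2:**
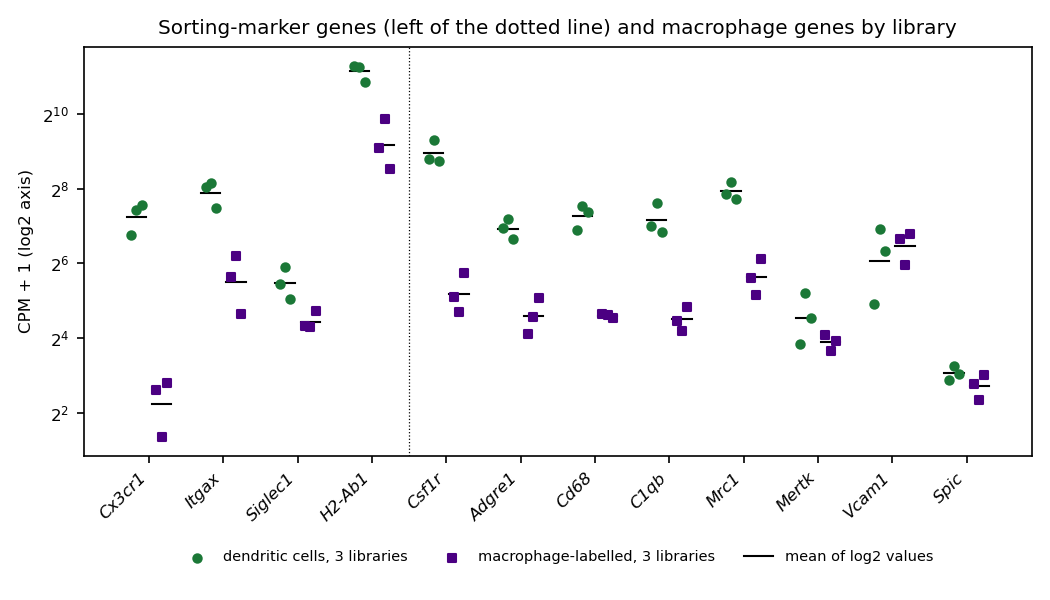
CPM + 1 on a log2 axis in each of the 3 dendritic cell libraries (green circles) and the 3 macrophage-labelled libraries (purple squares), with the mean of the log2 values as a bar, for genes of the sorting markers (left of the dotted line) and genes of macrophages. Siglec1, Csf1r, Adgre1, Cd68, C1qb and Mrc1 are higher in all 3 dendritic cell libraries, whereas the groups overlap for Mertk, Vcam1 and Spic.

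The dendritic cell label was set beside a list in the same way and with the same limit. Of 14 genes shared by conventional dendritic cells, 7 were higher in dendritic cells and 1 was higher in the macrophage-labelled libraries. The median log2 difference of the list was 0.63, against 1.83 for core macrophage genes, of which 16 of 21 were higher in these same dendritic cell libraries. The name dendritic cells, like that of macrophages, is thus the name of the sort. Kmo, an enzyme of tryptophan breakdown, stood at 95.6, 116 and 144 CPM in the dendritic cell libraries and 13.2, 25.4 and 9.88 CPM in the macrophage-labelled libraries, a log2 difference of 2.88 ± 0.31 (SE, limma adjusted p = 9.9e-07). Slamf7 stood at 221, 277 and 354 CPM against 68.3, 96.3 and 91.3 CPM and the gut-homing integrin subunit gene Itgb7 at 272, 392 and 307 CPM against 122, 98.3 and 158 CPM. Zbtb46, the transcription factor that marks the conventional lineage, was higher in dendritic cells at 40.3, 50.7 and 50.6 CPM against 15.7, 32.6 and 12.4 CPM (log2 difference 1.29 ± 0.31 SE, limma adjusted p = 0.0035, chosen after its values were seen), a call lost with no filter on low values (limma adjusted p = 0.053). Flt3, the receptor for the growth factor on which dendritic cells depend, did not pass the test, at 194, 241 and 393 CPM against 205, 208 and 125 CPM (adjusted p = 0.16 by limma). Transcripts of Flt3 and Zbtb46 were thus present in every library of both sorts. Spint2, a protease inhibitor gene, was higher in the macrophage-labelled libraries, at 4.08, 7.28 and 6.69 CPM against 39.5, 21.2 and 37.1 CPM.

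Monocyte genes leaned to the dendritic cell side too, with 12 of 22 tested higher there and 3 higher in the macrophage-labelled libraries. Ace, the angiotensin-converting enzyme of patrolling monocytes, stood at 109.8, 175 and 39.8 CPM in the dendritic cell libraries and 3.17, 0.821 and 4.71 CPM in the macrophage-labelled libraries, a log2 difference of 4.72 ± 0.44 (SE, limma adjusted p = 2.2e-07). The calcium-binding protein gene S100a4 stood at 138, 159 and 197 CPM against 17.1, 7.60 and 25.03 CPM and Ms4a4c at 44.6, 61.6 and 68.6 CPM against 6.50, 2.10 and 6.17 CPM. Cd300e was at 15.4, 21.5 and 6.23 CPM in dendritic cells and at 0.426 CPM or less in the macrophage-labelled libraries. Cd300e thus passed the filter through the dendritic cell libraries alone. Mpeg1, which encodes the pore-forming protein perforin-2, stood at 1438, 2216 and 2664 CPM against 635, 903 and 384 CPM. The 3 of the opposite direction were Chil3, Pglyrp1 and Hp, genes that neutrophils also express, and Chil3 stood at 40.5, 81.5 and 62.99 CPM against 286, 88.2 and 150.1 CPM (the 3 genes were named after their values were seen). Without macrophage replicate 1, and with the same genes tested, all 3 lost their calls. With no filter on low values the call of Mpeg1 was lost (limma adjusted p = 0.06).

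Among the genes with the largest differences toward dendritic cells (called, groups not overlapping, at least 5 CPM on average in the higher population), lectins were the first and the third. Cd209a (chromosome 8, 3743395 to 3748984 in mm10), a lectin related to DC-SIGN, stood at 404, 443 and 394 CPM in the dendritic cell libraries and 1.47, 0.675 and 1.45 CPM in the macrophage-labelled libraries, a log2 difference of 7.58 ± 0.26 (SE, limma adjusted p = 4.6e-13). Ctsk (chromosome 3, 95499210 to 95509387), the collagen-degrading protease cathepsin K, stood at 93.3, 96.9 and 244 CPM in the dendritic cell libraries and 0.628, 0.206 and 2.77 CPM in the macrophage-labelled libraries, a log2 difference of 6.07 ± 0.40 (SE, limma adjusted p = 5.4e-09), with dendritic cell replicate 3 the highest. Clec10a (chromosome 11, 70166623 to 70170836), a lectin for galactose-type sugars, stood at 210.3, 185 and 144 CPM against 2.88, 1.03 and 2.33 CPM (log2 difference 5.91 ± 0.29). Its neighbour Mgl2 (chromosome 11, 70130357 to 70137542) varied more among the dendritic cell libraries, at 174, 106 and 37.6 CPM against 3.47, 1.09 and 2.43 CPM (log2 difference 4.82 ± 0.42). Clec10a and Mgl2 are close relatives, so their reads may have been shared between them. The adhesion molecule L1cam (chromosome X, 73853780 to 73880834) was at 141, 195 and 185 CPM against 6.04, 4.11 and 11.1 CPM and the collagen receptor kinase Ddr1 (chromosome 17, 35681567 to 35704599) at 39.2, 50.7 and 31.6 CPM against 0.598, 0.147 and 0.904 CPM. Ddr1 reached 1 CPM in the dendritic cell libraries alone, so it passed the filter only through them and its groups could not overlap. The transporter gene Abca9 (chromosome 11, 110100822 to 110168153) stood at 158, 214 and 164 CPM against 7.48, 4.78 and 9.55 CPM and the semaphorin receptor gene Nrp2 (chromosome 1, 62703317 to 62818692) at 83.04, 122 and 182 CPM against 2.84, 2.45 and 14.1 CPM. Among the other genes of this rank, the log2 difference was 4.33 ± 0.29 for Cd300lg, 4.21 ± 0.36 for Sirpb1a and 4.18 ± 0.40 for Atp6v0d2, a subunit of the proton pump. All 14 genes beside Cx3cr1 kept their call under each alternative in which they were tested.

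The 250 bases before the start of the leading genes are shown, since these genes are among the 15 largest differences of their direction by the rule above. They are Cd209a (chr8:3748985-3749234, minus strand) and Jchain (chr5:88527898-88528147, minus strand), which lead their directions, and Ctsk (chr3:95498960-95499209, plus strand) and Ace (chr11:105967698-105967947, plus strand), which hold the most matches to a PU.1 core. Sequences run 5′ to 3′ toward the start, from RefSeq on GRCm38.p6, with matches to the letters searched in capitals.
Cd209a: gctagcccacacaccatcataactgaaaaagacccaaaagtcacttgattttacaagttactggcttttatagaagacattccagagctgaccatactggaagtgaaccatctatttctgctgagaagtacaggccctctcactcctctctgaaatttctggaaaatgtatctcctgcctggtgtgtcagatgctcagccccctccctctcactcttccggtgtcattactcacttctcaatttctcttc
Ctsk: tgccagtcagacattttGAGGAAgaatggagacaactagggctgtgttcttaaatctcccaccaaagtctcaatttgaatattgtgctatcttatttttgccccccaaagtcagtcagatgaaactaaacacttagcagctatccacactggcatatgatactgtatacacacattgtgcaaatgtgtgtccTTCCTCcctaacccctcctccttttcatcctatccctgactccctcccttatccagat
Ace: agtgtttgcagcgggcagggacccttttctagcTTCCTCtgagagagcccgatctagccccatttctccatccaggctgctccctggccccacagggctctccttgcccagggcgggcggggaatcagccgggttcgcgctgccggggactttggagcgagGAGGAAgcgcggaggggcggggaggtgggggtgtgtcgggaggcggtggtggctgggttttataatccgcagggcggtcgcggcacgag
Jchain: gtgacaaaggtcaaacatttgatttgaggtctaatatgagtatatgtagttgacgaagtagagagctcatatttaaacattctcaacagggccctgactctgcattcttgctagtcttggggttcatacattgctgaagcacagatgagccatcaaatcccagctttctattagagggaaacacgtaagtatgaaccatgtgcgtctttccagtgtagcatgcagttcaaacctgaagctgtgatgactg
PU.1 is a transcription factor of myeloid cells, and its gene Spi1 was higher in dendritic cells at 119, 155 and 134 CPM against 69.4, 48.05 and 49.8 CPM (log2 difference 1.28 ± 0.26 SE, limma adjusted p = 0.00085, chosen after its values were seen). The letters GAGGAA, a PU.1 core, were found on either strand in 7 of the 12 promoters matched among the 15 leading genes of dendritic cells, in 2 of 11 among the 15 leading genes of the macrophage-labelled libraries and in 22.9% of all 9625 promoters matched to a tested gene. Over all genes called, the share was 28.4% of 936 for those higher in dendritic cells and 23.03% of 2002 for those higher in the macrophage-labelled libraries. TGANTCA, the AP-1 site, was in 4.08% of all promoters, in none of the 23 leading ones, in 6.73% for genes higher in dendritic cells and in 3.796% for genes higher in the macrophage-labelled libraries. The letters AGATAA, bound by factors such as the products of Gata1 and Gata2, were in 5.91% of all promoters, in Lax1 alone of the 23 leading ones, in 5.98% for genes higher in dendritic cells and in 7.69% for genes higher in the macrophage-labelled libraries. None of the motifs contains another, no other motif was searched, and they were picked after the gene values were seen, so these shares are a description with no test.

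Genes of cDC2 were higher in dendritic cells than in the macrophage-labelled libraries almost throughout. The list summed to 2799, 3732 and 3396 CPM in the dendritic cell libraries and 937, 775 and 1013 CPM in the macrophage-labelled libraries. In the monocyte libraries of the series it summed to 2841, 1680 and 2046 CPM, so high levels of the list are not particular to dendritic cells. Of 17 tested, 15 were higher there and 1, Esam, was higher in the macrophage-labelled libraries. Esam passed the filter through the macrophage-labelled libraries alone, and 1 of the 15 through the dendritic cell libraries alone. With any 1 library left out and the same genes tested, 14 to 15 were higher in dendritic cells. Beside the lectins above, Klf4, a transcription factor of monocytes and cDC2, stood at 113, 168 and 184 CPM in the dendritic cell libraries and 16.7, 16.4 and 18.9 CPM in the macrophage-labelled libraries, a log2 difference of 3.06 ± 0.26 (SE, limma adjusted p = 9.1e-08). Notch2, the receptor that directs part of this lineage, stood at 667, 1082 and 908 CPM against 439, 400.1 and 306 CPM. Sirpa stood at 528, 712 and 578 CPM against 114, 66.3 and 127 CPM and Itgam, which encodes CD11b, at 200.9, 300.4 and 323 CPM against 79.5, 57.4 and 103 CPM. Irf4, the lineage's regulator, was the member that did not pass, at 119, 159.7 and 192 CPM against 47.4, 20.4 and 268 CPM. Its macrophage-labelled values span those of the dendritic cells, and the highest of them is in replicate 3. That library also held the most plasma cell transcripts, and a link of Irf4 to these was not tested. Sirpa, Esam and Irf4 were chosen after their values were seen.

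**Figure D3:**
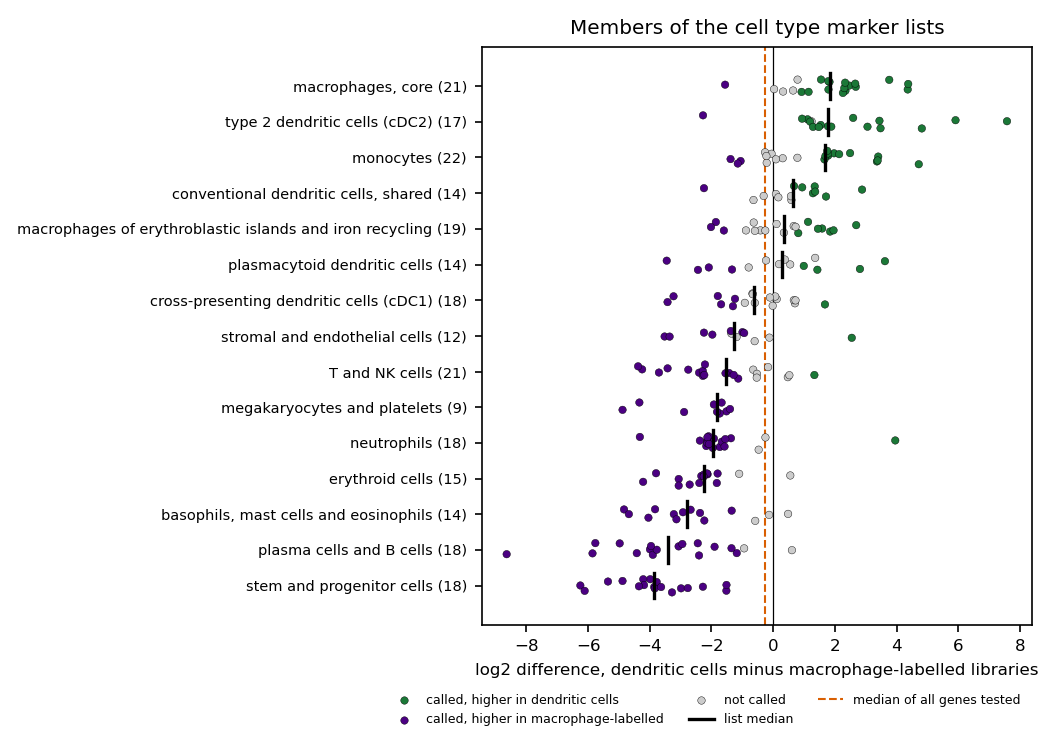
Log2 difference (dendritic cells minus macrophage-labelled libraries) of each tested member of the 15 marker lists, with the number tested in brackets, called genes in green or purple, list medians as black bars and the median of all genes tested (−0.26) as a dashed line. Medians run from 1.83 for core macrophage genes to −3.85 for stem and progenitor genes.

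C-type lectin receptors bind sugars on microbes and on self glycoproteins. Of 23 tested, 16 were higher in dendritic cells and 1 was higher in the macrophage-labelled libraries, with a median log2 difference of 2.42. The count is a description, since 5 of the 23 passed the filter through the dendritic cell libraries alone. Of the other 18, 11 were higher in dendritic cells. Clec7a, the receptor for fungal glucans, stood at 99.5, 154 and 155 CPM in the dendritic cell libraries and 10.9, 13.7 and 15.3 CPM in the macrophage-labelled libraries, a log2 difference of 3.25 ± 0.27 (SE, limma adjusted p = 6.5e-08). The inhibitory receptor gene Clec4a3 stood at 73.2, 80.8 and 57.6 CPM against 3.71, 2.02 and 5.55 CPM, and Cd209b at 10.9, 5.38 and 4.39 CPM against 0.0001, 0.0001 and 0.359 CPM. Cd209b passed the filter through the dendritic cell libraries alone. The exception was Ly75, which encodes DEC-205, at 5.14, 14.8 and 17.7 CPM against 43.2, 41.6 and 26.6 CPM (log2 difference −1.61 ± 0.35 SE, limma adjusted p = 0.0017, chosen after its values were seen), a call lost with no filter on low values (limma adjusted p = 0.057). Clec9a, the receptor of cDC1 for dead cells, did not pass, at 52.02, 65.3 and 77.97 CPM against 59.4, 161 and 28.3 CPM, also chosen afterwards.

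Genes of MHC class II presentation were higher in dendritic cells, although both gates asked for high MHC class II on the surface. Of 20 tested, 13 were higher in dendritic cells and none was higher in the macrophage-labelled libraries. Cd74, the invariant chain, stood at 6509, 7012 and 6433 CPM in the dendritic cell libraries and 1269, 1656 and 1128 CPM in the macrophage-labelled libraries, a log2 difference of 2.32 ± 0.36 (SE, limma adjusted p = 7.4e-05). The chain genes H2-Aa, H2-Ab1 and H2-Eb1 had log2 differences of 2.36 ± 0.35, 1.98 ± 0.36 and 2.36 ± 0.35, and H2-Ab1 stood at 2526, 2456 and 1878 CPM against 548, 933 and 370.1 CPM. With no filter on low values the call of Cd74 was lost (limma adjusted p = 0.067). In Cd74 and the 3 chain genes the lowest dendritic cell library was above the highest macrophage-labelled library, which was replicate 2. Ciita, the master regulator of these genes, stood at 486, 473 and 359.8 CPM against 85.8, 164 and 56.8 CPM (log2 difference 2.22 ± 0.33 SE, limma adjusted p = 4.3e-05, chosen after its values were seen). The peptide-loading gene H2-DMb1 stood at 284, 294 and 294 CPM against 55.96, 76.7 and 25.3 CPM. The antigen-processing enzymes moved the same way, with Ctss (cathepsin S) at 491, 655 and 684 CPM against 72.3, 72.6 and 129 CPM, Ifi30 (a lysosomal thiol reductase) at 216, 294 and 289 CPM against 30.04, 26.7 and 48.4 CPM and Lgmn (legumain) at 118, 182 and 153 CPM against 20.7, 15.4 and 42.7 CPM. Of 22 genes of MHC class I and the immunoproteasome, by contrast, none was higher in dendritic cells (9.85% of all genes tested were). In the macrophage-labelled libraries 3 were higher (13.6%, against 21% of all genes tested). Those were the class Ib genes H2-Q4, H2-Q6 and H2-Q7, near-identical relatives whose reads may be shared. H2-Q7 stood at 7.55, 12.7 and 8.38 CPM against 67.5, 39.8 and 38.01 CPM and H2-Q6 at 5.82, 6.47 and 5.29 CPM against 43.03, 22.2 and 31.96 CPM. The direction of the class I list depends on the scaling: 6 genes were higher in dendritic cells and 3 in the macrophage-labelled libraries with median centring, and 2 and 6 with a common total.

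Lysosomal enzymes and proton pump subunits, which digest what a cell takes up, were higher in dendritic cells for 25 of 42 genes and in the macrophage-labelled libraries for 2, Ctso and Ppt1. The calls of Ctso and Ppt1 were lost under 5 and 15 of 22 alternatives (limma adjusted p up to 0.145 and 0.221). With median centring and with quantile normalization no lysosomal gene was called higher in the macrophage-labelled libraries. Ctsh (cathepsin H) stood at 237, 294 and 276 CPM against 32.97, 31.8 and 64.3 CPM, a log2 difference of 2.69 ± 0.29 (SE, limma adjusted p = 1e-06). The proton pump subunit gene Atp6v0d2 stood at 18.9, 25.5 and 77.8 CPM in the dendritic cell libraries and 1.47, 0.866 and 0.505 CPM in the macrophage-labelled libraries. As for Ctsk, dendritic cell replicate 3 held the highest level. Scavenger receptors were higher in dendritic cells for 9 of 15 and in the macrophage-labelled libraries for 3 (Cd5l, Stab2 and Scarf1). The call of Scarf1 was lost under 4 of 22 alternatives (limma adjusted p up to 0.126). Lrp1, a large endocytic receptor, stood at 726, 988 and 488 CPM against 99.4, 54.7 and 118 CPM (log2 difference 3.01 ± 0.33 SE, limma adjusted p = 1.3e-06). Genes of lipoprotein and cholesterol handling were higher in dendritic cells for 19 of 29 and in the macrophage-labelled libraries for 1. They included the lipase gene Lpl at 127, 175 and 110.05 CPM against 18.8, 19.8 and 29.3 CPM and the transporter gene Abca6 at 20.9, 14.3 and 31.7 CPM against 1.38, 0.499 and 0.705 CPM. The exception, Vldlr, stood at 0.0001, 0.659 and 0.409 CPM against 45.3, 19.2 and 8.35 CPM and was chosen after its values were seen. Vldlr passed the filter through the macrophage-labelled libraries alone, so its direction was fixed.

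Of 23 genes of dead cell clearance and complement, 10 were higher in dendritic cells and 4 in the macrophage-labelled libraries (Timd4, Tyro3, Cd300lf and Cr2). Of these 4, 3 passed the filter through the macrophage-labelled libraries alone. The calls of Timd4, Tyro3, Cd300lf and Cr2 were lost under 1, 1, 5 and 4 of 22 alternatives (limma adjusted p up to 0.101, 0.067, 0.304 and 0.400). With dendritic cells first, the counts were 13 and 2 with median centring and 13 and 0 with quantile normalization. C1qb, a chain of complement C1q, stood at 128, 197 and 113 CPM in the dendritic cell libraries and 20.97, 17.4 and 27.6 CPM in the macrophage-labelled libraries, a log2 difference of 2.66 ± 0.28 (SE, limma adjusted p = 7.7e-07). C3ar1, a receptor for a complement fragment, stood at 27.7, 48.1 and 43.8 CPM against 1.71, 1.34 and 2.54 CPM and the properdin gene Cfp at 94.7, 126 and 86.04 CPM against 27.04, 27.7 and 31.5 CPM. Of 13 Fc receptor genes, whose products bind antibody, 8 were higher in dendritic cells and 1, the B cell gene Fcrla, in the macrophage-labelled libraries. The inhibitory receptor gene Fcgr2b stood at 181, 168 and 135 CPM against 21.8, 25.96 and 25.8 CPM and the activating receptor gene Fcgr4 at 21.4, 28.4 and 19.3 CPM against 1.29, 0.822 and 2.11 CPM. Fcgr1 and Fcer1g, the shared signalling chain, had log2 differences of 2.47 ± 0.30 and 2.07 ± 0.26.

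Toll-like receptors and their adaptors, which sense microbial molecules, were higher in dendritic cells for 16 of 27 genes and in the macrophage-labelled libraries for 1, the receptors' chaperone gene Hsp90b1 (named after its values were seen). The call of Hsp90b1 was lost under 13 of 22 alternatives (limma adjusted p up to 0.255). Tlr1 and Tlr2 encode the receptor pair for the lipopeptide PAM3CSK4, the agonist used elsewhere in the series. Tlr1 stood at 58.8, 73.1 and 52.4 CPM in the dendritic cell libraries and 4.86, 7.995 and 13.8 CPM in the macrophage-labelled libraries, a log2 difference of 2.75 ± 0.31 (SE, limma adjusted p = 2.1e-06). Tlr2 stood at 45.9, 79.2 and 80.6 CPM against 14.2, 14.7 and 13.5 CPM, a log2 difference of 2.15 ± 0.27 (SE, limma adjusted p = 7.1e-06). The endosomal receptor genes Tlr8 and Tlr9 had log2 differences of 2.74 ± 0.36 and 2.17 ± 0.26. Tlr3, the receptor for double-stranded RNA, did not pass the test, at 15.6, 33.02 and 55.5 CPM against 58.01, 127 and 27.5 CPM, and neither did Tlr4, the receptor for endotoxin, at 19.1, 33.9 and 31.5 CPM against 24.8, 15.9 and 25.7 CPM (both chosen after their values were seen). Inflammasome and interleukin-1 genes were higher in dendritic cells for 13 of 21 and in the macrophage-labelled libraries for 2, Il1r1 and Il18rap. The sensors Nlrp3 and Mefv stood at 42.5, 40.5 and 38.2 CPM against 6.91, 5.62 and 3.96 CPM and at 85.6, 61.1 and 51.4 CPM against 6.82, 3.36 and 6.53 CPM. The cytokine gene Il1b was low, at 14.9, 15.6 and 5.08 CPM against 0.808, 0.851 and 0.266 CPM, and the interleukin-1 receptor gene Il1r1 went the other way, at 0.461, 1.05 and 1.79 CPM against 33.4, 22.7 and 18.95 CPM. Il1b reached 1 CPM in the dendritic cell libraries alone, so it passed the filter only through them. Interferon-stimulated genes were higher in dendritic cells for 20 of 39 and in the macrophage-labelled libraries for 5 (Ifitm1, Gbp7, Ifi44, Isg20 and Ddx58). The calls of Isg20 and Ddx58 were lost under 2 and 12 of 22 alternatives (limma adjusted p up to 0.079 and 0.162). Ifitm3, which blocks virus entry, stood at 155, 204 and 244 CPM against 49.8, 23.7 and 33.3 CPM, and Ifitm1, of the same family, at 4.07, 3.09 and 3.37 CPM against 48.9, 17.6 and 19.5 CPM, the reverse direction. The DNA sensor family gene Ifi207 had a log2 difference of 2.30 ± 0.28 and the GTPase gene Gbp7 of −1.98 ± 0.27.

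**Figure D4:**
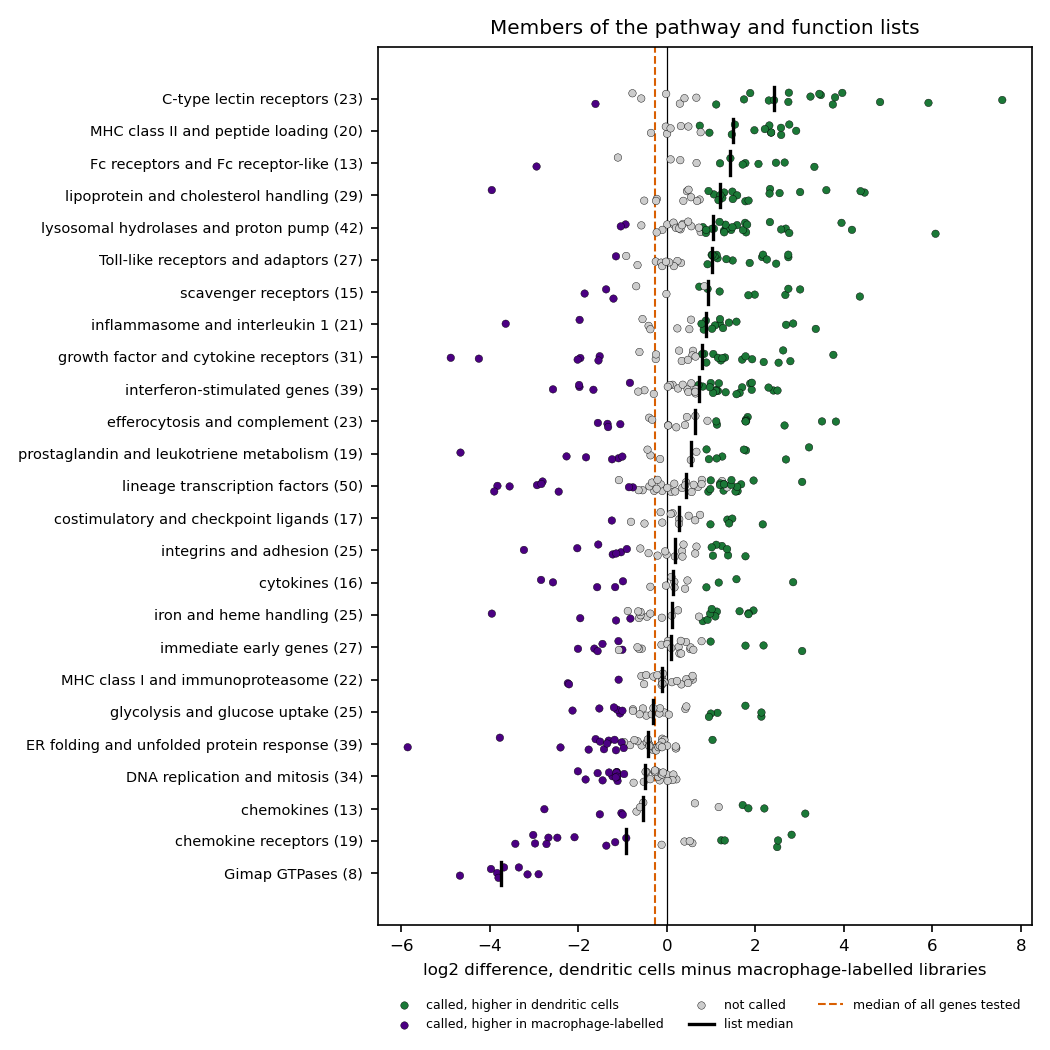
Log2 difference (dendritic cells minus macrophage-labelled libraries) of each tested member of the 25 pathway and function lists, with the number tested in brackets, called genes in green or purple, list medians as black bars and the median of all genes tested (−0.26) as a dashed line. Medians run from 2.42 for C-type lectins to −3.74 for Gimap GTPases.

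Growth factor and cytokine receptors divided: 16 of 31 were higher in dendritic cells and 6 in the macrophage-labelled libraries (19.4%, against 21% of all genes tested). Beside Csf1r, the interleukin-6 receptor gene Il6ra stood at 182, 227 and 246 CPM against 41.6, 28.9 and 41.2 CPM and Tnfrsf11a, which encodes RANK, at 37.4, 52.6 and 60.8 CPM against 7.93, 7.32 and 4.15 CPM. Those of the opposite direction included Il2rb, Il2ra, Epor, Il7r and Kit, receptors known from stem cells, red cell precursors and lymphocytes (Il2ra and Il7r were named after their values were seen). Kit stood at 53.1, 77.3 and 126 CPM against 389, 234 and 137 CPM (log2 difference −1.52 ± 0.36 SE, limma adjusted p = 0.003), and its call was lost without macrophage replicate 1, with the same genes tested, and where low genes were kept in the fit (limma adjusted p up to 0.073). Of 50 lineage transcription factors, 17 were higher in dendritic cells (34%, against 9.85% of all genes tested) and 9 in the macrophage-labelled libraries (18%, against 21%). Gata2 and Gata1, regulators of progenitors and of red cell, platelet and mast cell precursors, stood at 4.85, 3.798 and 2.02 CPM against 113, 69.6 and 29.2 CPM and at 0.699, 0.923 and 1.05 CPM against 14.8, 8.28 and 19.4 CPM. The lymphoid factor gene Ikzf2 stood at 2.33, 5.43 and 10.3 CPM against 93.1, 78.6 and 51.5 CPM. Irf8, which both cDC1 and monocytes need, did not pass the test, at 231, 435 and 499 CPM against 245, 366 and 128 CPM (adjusted p = 0.15 by limma, chosen after its values were seen).

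Marker lists of other marrow lineages were examined next. Their summed levels are given beside them, and their part in the lower levels of macrophage genes in these libraries was not tested. Of 18 stem and progenitor genes tested, 18 were higher in the macrophage-labelled libraries, with a median log2 difference of −3.85. The count is a description, since 6 of the 18 passed the filter through the macrophage-labelled libraries alone. The other 12 were also higher there. With any 1 library left out and the same genes tested, 17 to 18 of the 18 were. Hlf (chromosome 11, 90336535 to 90390917), a transcription factor of blood stem cells, stood at 2.25, 0.528 and 0.741 CPM in the dendritic cell libraries and 268, 125 and 112 CPM in the macrophage-labelled libraries, a log2 difference of −6.25 ± 0.35 (SE, limma adjusted p = 7.8e-10). Adgrg1 (chromosome 8, 94977109 to 95014208), an adhesion receptor of stem cells, stood at 6.65, 3.16 and 3.24 CPM in the dendritic cell libraries and 638, 346 and 200.3 CPM in the macrophage-labelled libraries, a log2 difference of −6.11 ± 0.35 (SE, limma adjusted p = 1.2e-09). Angpt1 (chromosome 15, 42424667 to 42676977) encodes a ligand of the receptor TIE2 and stood at 2.25, 1.29 and 1.76 CPM against 174, 114 and 69.1 CPM. Mycn stood at 0.196, 0.264 and 0.0001 CPM against 35.9, 19.03 and 16.4 CPM, and the surface marker gene Cd34 at 7.27, 9.71 and 11.4 CPM against 276, 151 and 103 CPM (Cd34 was chosen after its values were seen). In each of these 5 genes macrophage replicate 1 was the highest of the 6 libraries. Summed over the 18 genes, the level was 94.1, 118 and 169 CPM in the dendritic cell libraries and 2418, 1358 and 934 CPM in the macrophage-labelled libraries.

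Plasma cell and B cell genes were higher in the macrophage-labelled libraries for 16 of 18 tested and in dendritic cells for none. Of these 18, 8 passed the filter through the macrophage-labelled libraries alone, and of the other 10, 8 were called. Jchain (chromosome 5, 88519809 to 88527897), which joins secreted antibodies, stood at 0.0001, 8.68 and 8.05 CPM in the dendritic cell libraries and 2029, 397 and 6890.5 CPM in the macrophage-labelled libraries, a log2 difference of −8.64 ± 0.78 (SE, limma adjusted p = 1.3e-07). Mzb1, a chaperone of antibody secretion, stood at 0.0001, 0.0001 and 0.026 CPM against 52.2, 13.997 and 249.6 CPM, where 0.0001 CPM is the lowest value the table lists. The coactivator gene Pou2af1 stood at 0.0001, 0.132 and 0.0001 CPM against 40.95, 17.3 and 237 CPM and Cd79a, part of the B cell receptor, at 0.168, 0.053 and 0.358 CPM against 25.1, 11.4 and 159 CPM. In all 4 genes macrophage replicate 3 was the highest library and replicate 2 the lowest of the 3. The summed level of the list was 162, 181 and 189 CPM in dendritic cells and 2588, 677 and 9119.6 CPM in the macrophage-labelled libraries. Without macrophage replicate 3, and with the same genes tested, 15 of the 18 were higher in the macrophage-labelled libraries. Xbp1, the secretory regulator, was called as deposited at 80.98, 85.7 and 88.03 CPM against 196, 77.8 and 475 CPM (adjusted p = 0.041 by limma), but lost its call under 18 of 22 alternatives (adjusted p up to 0.275). Both gates excluded B220, a form of CD45 on B cells.

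**Figure D5:**
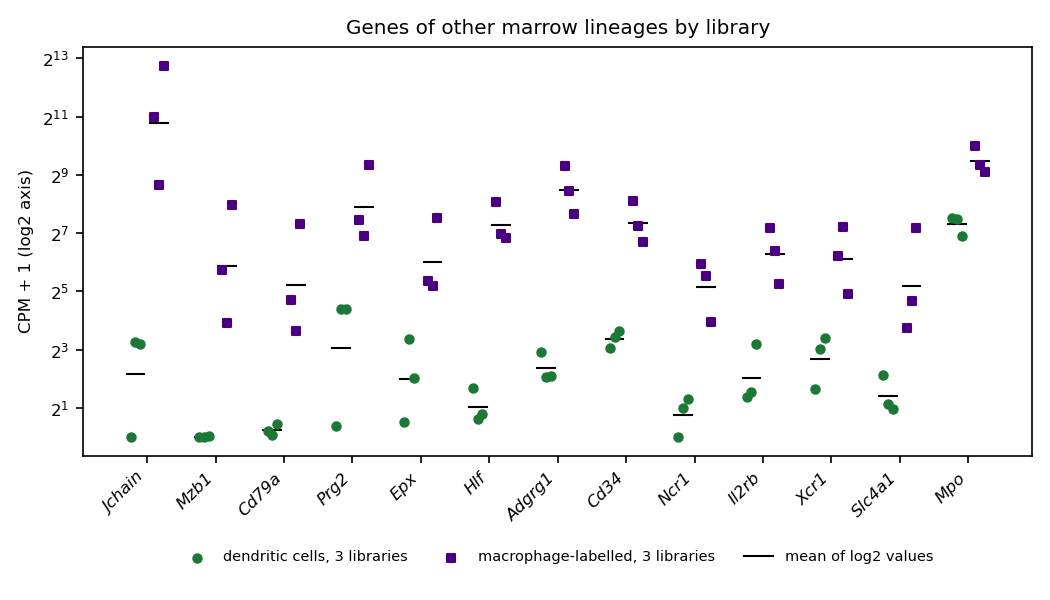
CPM + 1 on a log2 axis in each of the 3 dendritic cell libraries (green circles) and the 3 macrophage-labelled libraries (purple squares), with the mean of the log2 values as a bar, for genes of plasma and B cells, eosinophils, stem and progenitor cells, natural killer cells, cDC1, red cells and neutrophils. All 3 macrophage-labelled libraries lie above all 3 dendritic cell libraries for each gene (Epx was chosen after its values were seen), and replicate 3 is the highest for Jchain, Mzb1, Cd79a, Prg2, Epx and Slc4a1. Groups did not overlap in 43.9% of all genes tested, and the rule that named Jchain, Mzb1, Cd79a, Prg2, Hlf and Adgrg1 required it.

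Genes of red cells were higher in the macrophage-labelled libraries for 13 of 15 and in dendritic cells for none. Of the 15, 4 passed the filter through the macrophage-labelled libraries alone, and of the other 11, 9 were called. Car2, a carbonic anhydrase, stood at 4.25, 8.84 and 10.04 CPM in the dendritic cell libraries and 152, 106 and 223 CPM in the macrophage-labelled libraries, a log2 difference of −4.22 ± 0.32 (SE, limma adjusted p = 2.9e-08). Slc4a1, the anion exchanger of red cells, stood at 3.34, 1.19 and 0.945 CPM against 12.3, 24.7 and 145 CPM, the membrane protein gene Ermap at 1.75, 2.45 and 2.45 CPM against 15.1, 15.2 and 72.3 CPM and the transcription factor gene Klf1 at 0.084, 0.501 and 0.588 CPM against 6.13, 3.64 and 20.7 CPM. Macrophage replicate 3 was the highest for these 4 genes. The summed level of the list was 82.1, 81.7 and 68.1 CPM against 288, 287 and 1163 CPM. With quantile normalization 5 of the 15 were called in that direction. Of 12 platelet and megakaryocyte genes listed, 9 were tested and 9 were higher in the macrophage-labelled libraries, a description, since 6 of the 9 passed the filter through those libraries alone. With quantile normalization 4 of the 9 were called. The list summed to 22.2, 25.7 and 36.9 CPM against 245, 306 and 96.1 CPM. Itga2b, a platelet integrin, stood at 3.74, 1.42 and 1.66 CPM against 81.3, 93.5 and 31.5 CPM. Gp5 and Gp1bb had log2 differences of −2.89 ± 0.37 and −1.73 ± 0.35.

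Neutrophil genes were higher in the macrophage-labelled libraries for 15 of 18 tested, with a median log2 difference of −1.94. The list summed to 733, 976 and 838 CPM against 4345, 1834 and 2094 CPM. Mpo, myeloperoxidase of immature granulocytes, stood at 182, 178 and 119.9 CPM in the dendritic cell libraries and 1025, 641 and 548 CPM in the macrophage-labelled libraries, a log2 difference of −2.17 ± 0.31 (SE, limma adjusted p = 2.3e-05). Mpo was thus read in all 6 libraries, at the most in macrophage replicate 1. Cebpe, a regulator of granule formation, stood at 2.84, 3.82 and 1.12 CPM against 22.1, 11.7 and 17.7 CPM and Retnlg at 0.391, 0.211 and 1.02 CPM against 7.81, 50.7 and 58.9 CPM. The exception was Mmp9, a matrix protease, at 106, 141 and 331 CPM against 10.8, 6.65 and 13.9 CPM (log2 difference 3.96 ± 0.36 SE, limma adjusted p = 1.3e-07). Of 14 basophil, mast cell and eosinophil genes, 11 were higher in the macrophage-labelled libraries and none in dendritic cells. This list summed to 56.7, 66.8 and 62.9 CPM against 505, 358 and 1184 CPM. Prg2 (chromosome 2, 84980461 to 84983632), the major basic protein of eosinophils, stood at 0.307, 19.9 and 19.98 CPM in the dendritic cell libraries and 174, 117 and 643 CPM in the macrophage-labelled libraries, a log2 difference of −4.84 ± 0.74 (SE, limma adjusted p = 6e-05). The ribonuclease gene Ear6 stood at 0.0001, 0.0001 and 2.09 CPM against 14.7, 25.03 and 126 CPM, where near-identical relatives may share reads, and the mast cell protease gene Cpa3 at 3.63, 2.22 and 2.66 CPM against 43.1, 30.6 and 16.1 CPM. The eosinophil genes Prg2 and Ear6 were highest in macrophage replicate 3, and the mast cell gene Cpa3 in replicate 1.

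Genes of T cells and natural killer cells were higher in the macrophage-labelled libraries for 14 of 21 and in dendritic cells for 1, the receptor gene Klrd1, which was named after its values were seen. The list summed to 110.3, 119.7 and 243 CPM against 614, 402 and 237 CPM. The call of Klrd1 was lost without dendritic cell replicate 3 and with no filter on low values (limma adjusted p up to 0.102). The natural killer receptor gene Ncr1 stood at 0.0001, 1.002 and 1.46 CPM in the dendritic cell libraries and 60.2, 45.6 and 14.6 CPM in the macrophage-labelled libraries, a log2 difference of −4.38 ± 0.43 (SE, limma adjusted p = 3.6e-07). Il2rb, a chain of the interleukin-2 and interleukin-15 receptors, stood at 1.58, 1.90 and 8.12 CPM against 145, 83.4 and 36.9 CPM, the regulator gene Gata3 at 0.643, 0.185 and 0.409 CPM against 27.6, 11.7 and 8.31 CPM and the granule protein gene Nkg7 at 3.80, 3.69 and 3.76 CPM against 54.03, 28.9 and 18.95 CPM. Replicate 1 was the highest for these 4 genes and replicate 3 the lowest of the macrophage-labelled libraries. Gata3 passed the filter through the macrophage-labelled libraries alone. All 8 GTPases of the Gimap cluster on chromosome 6, known from lymphocytes, were higher in the macrophage-labelled libraries, with a median log2 difference of −3.74. Gimap6 stood at 0.517, 1.85 and 9.17 CPM against 96.4, 60.5 and 121 CPM and Gimap4 at 2.28, 4.04 and 9.07 CPM against 96.1, 51.6 and 87.7 CPM. The other genes among the 15 largest differences in this direction included Adgrl4 at 1.24, 1.29 and 2.07 CPM against 225, 150.1 and 106 CPM and Lax1, a lymphocyte adaptor, at 0.671, 0.185 and 1.23 CPM against 45.6, 21.2 and 90.5 CPM. Zfpm1, a partner of GATA factors, and Nwd1 had log2 differences of −4.66 ± 0.30 and −4.69 ± 0.36. Of 12 stromal and endothelial genes tested, 7 were higher in the macrophage-labelled libraries, among them Pdgfrb at 0.615, 1.61 and 0.945 CPM against 34.1, 19.1 and 11.5 CPM and Tie1 at 0.293, 1.16 and 0.102 CPM against 34.4, 12.6 and 8.68 CPM, and Lpl was higher in dendritic cells. That list summed to 173, 219.8 and 174 CPM against 186, 126 and 213 CPM, Lpl included. Of the collagen genes of stromal cells, Col1a1 stood at 1.06, 2.72 and 1.05 CPM against 1.44, 1.12 and 34.8 CPM, and the endothelial receptor gene Kdr stayed at or under 2.63 CPM in every library (both chosen after their values were seen).

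The cDC1 list divided. Of 18 tested, 6 were higher in the macrophage-labelled libraries, 1 was higher in dendritic cells and 11 did not pass. Xcr1, the chemokine receptor that marks cDC1, stood at 2.15, 7.07 and 9.63 CPM in the dendritic cell libraries and 73.8, 148 and 29.1 CPM in the macrophage-labelled libraries, a log2 difference of −3.42 ± 0.47 (SE, limma adjusted p = 1.6e-05). Itgae, which encodes CD103, stood at 0.671, 1.11 and 0.358 CPM against 12.9, 24.3 and 10.3 CPM, and Cd8a at 2.03, 2.77 and 4.29 CPM against 18.9, 16.2 and 6.36 CPM. Batf3, a transcription factor that cDC1 need, went the other way, at 16.1, 18.2 and 7.59 CPM against 3.17, 5.66 and 2.10 CPM (log2 difference 1.68 ± 0.35 SE, limma adjusted p = 0.0012, chosen after its values were seen). Wdfy4, which cross-presentation requires, stood at 618, 874 and 800.2 CPM against 722, 1017 and 463 CPM, and the groups overlapped. Replicate 2 was the highest of the macrophage-labelled libraries for Xcr1, Itgae and Wdfy4. Without macrophage replicate 3, and with the same genes tested, 10 of the 18 were higher in the macrophage-labelled libraries. Of 14 genes of plasmacytoid dendritic cells tested, 4 were higher in each population. Lifr, Upb1, Siglech and Irf7 were higher in dendritic cells and Mctp2, Ly6d, Ccr9 and Pacsin1 in the macrophage-labelled libraries. Of the latter 4, 2 passed the filter through the macrophage-labelled libraries alone. The calls of Siglech, Irf7 and Pacsin1 were lost under 1, 9 and 6 of 22 alternatives (limma adjusted p up to 0.053, 0.124 and 0.284). Lifr stood at 70.6, 77.9 and 97.8 CPM against 2.72, 6.47 and 9.71 CPM and Ly6d at 0.307, 0.950 and 0.102 CPM against 9.15, 5.88 and 51.6 CPM. Siglech, a marker of plasmacytoid dendritic cells, stood at 1.94, 6.46 and 3.45 CPM against 0.808, 0.279 and 1.14 CPM.

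Of 34 genes of DNA replication and mitosis tested, 15 were higher in the macrophage-labelled libraries and none in dendritic cells. Mcm2 and Mcm6, subunits of the replicative helicase, stood at 28.8, 37.3 and 32.8 CPM against 134, 98.7 and 129.8 CPM and at 45.7, 78.1 and 87.7 CPM against 249, 170.4 and 197 CPM, with log2 differences of −1.84 ± 0.25 and −1.56 ± 0.29. The replication licensing gene Cdt1 and the helicase gene Hells had log2 differences of −1.45 ± 0.27 and −2.01 ± 0.34. Mki67, the proliferation marker, was named after its values were seen and stood at 698, 806 and 912 CPM against 801, 647 and 993 CPM. With libraries rescaled to a common total, 20 of the 34 were called. Protein folding genes of the endoplasmic reticulum were higher in the macrophage-labelled libraries for 13 of 39 and in dendritic cells for 1, the stress sensor gene Atf6. The call of Atf6 was lost under 7 of 22 alternatives (limma adjusted p up to 0.077). With median centring 7 of the 39 were called higher in the macrophage-labelled libraries. The members with the smallest p-values, Mzb1, Derl3, Fkbp11 and Dnajb9, include 3 that the plasma cell list also holds. Derl3 stood at 0.182, 0.501 and 1.12 CPM against 20.3, 5.14 and 72.9 CPM, with macrophage replicate 3 the highest. Without macrophage replicate 1, and with the same genes tested, 5 of the 39 were called.

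Chemokine receptors were higher in the macrophage-labelled libraries for 10 of 19 tested beside Cx3cr1 and in dendritic cells for 5 (Cmklr1, Gpr183, Ccr2 and Ccr1 among them). The call of Ccr1 was lost under 11 of 22 alternatives (limma adjusted p up to 0.186). Ccr3, of eosinophils, stood at 1.56, 4.91 and 3.17 CPM against 18.4, 26.2 and 30.2 CPM. Toward dendritic cells, Gpr183, a receptor for oxysterols, stood at 58.7, 56.3 and 87.3 CPM against 10.1, 12.7 and 9.66 CPM and Cmklr1, the chemerin receptor, at 20.4, 34.3 and 19.5 CPM against 2.66, 2.10 and 2.89 CPM. Ccr2, by which monocytes leave the marrow, was chosen after its values were seen and stood at 592, 914 and 1199 CPM against 140.3, 189.99 and 134 CPM. Of 13 chemokines tested, 4 were higher in dendritic cells (Ccl9, Ccl6, Cxcl16 and Ccl24) and 4 in the macrophage-labelled libraries (Xcl1, Pf4, Cxcl12 and Ccl4). The calls of Pf4, Cxcl12 and Ccl4 were lost under 2, 12 and 10 of 22 alternatives (limma adjusted p up to 0.069, 0.368 and 0.486). Ccl9 and Ccl6 stood at 180.4, 259 and 340.2 CPM against 33.8, 21.2 and 30.1 CPM and at 128, 166 and 205 CPM against 20.2, 33.9 and 60.6 CPM, whereas Xcl1, the ligand of XCR1, stood at 0.475, 0.106 and 1.33 CPM against 15.9, 14.7 and 3.51 CPM. Of 16 cytokines tested, 4 were higher in dendritic cells (Il1b, Il1rn, Tnfsf13 and Tnfsf13b) and 5 in the macrophage-labelled libraries (Ltb, Il12a, Osm, Csf1 and Il15). Il1b passed the filter through the dendritic cell libraries alone, and 1 of the 16 passed it through the macrophage-labelled libraries alone. The calls of Tnfsf13, Tnfsf13b, Osm, Csf1 and Il15 were lost under 9, 15, 3, 1 and 8 of 22 alternatives (limma adjusted p up to 0.145, 0.166, 0.115, 0.07 and 0.260). With dendritic cell replicate 3, macrophage replicate 2 or macrophage replicate 3 left out and the same genes tested, 2 cytokines were higher in dendritic cells. The lymphotoxin gene Ltb stood at 2.68, 4.54 and 3.58 CPM against 42.1, 18.2 and 40.6 CPM, and Csf1, which encodes the ligand of CSF1R, at 3.07, 2.98 and 2.30 CPM against 7.75, 7.15 and 7.51 CPM. Of 17 costimulatory and checkpoint ligands, 5 were higher in dendritic cells (Icosl, Cd48, Tnfsf9, Cd40 and Vsir) and 1 in the macrophage-labelled libraries. The calls of Cd40 and Vsir were lost under 3 and 5 of 22 alternatives (limma adjusted p up to 0.071 and 0.081). With quantile normalization 8 were higher in dendritic cells. Icosl, the ligand of the T cell receptor ICOS, stood at 60.8, 66.6 and 90.03 CPM against 14.4, 18.96 and 12.6 CPM, and Lgals9, the exception, stood at 19.5, 31.96 and 28.9 CPM against 81.3, 55.8 and 56.1 CPM.

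The remaining lists held calls in both directions. Over all genes tested, 9.85% were higher in dendritic cells and 21% in the macrophage-labelled libraries. Higher in the macrophage-labelled libraries were 24% of glycolysis genes, 22.2% of immediate early genes and 16% of iron and heme genes. These shares lie near or under that of all genes and do not set the lists apart in that direction. Higher in dendritic cells were 24% of glycolysis genes, 14.8% of immediate early genes and 40% of iron and heme genes, each above 9.85%. For integrin and adhesion genes the share was 28% in each direction. For prostaglandin and leukotriene genes it was 42.1% in dendritic cells and 31.6% in the macrophage-labelled libraries. Integrin and adhesion genes beside Itgax were higher in each population for 7 of 25. Itga6, of progenitors and platelets, stood at 11.3, 16.5 and 18.95 CPM against 83.3, 69.9 and 47.6 CPM. Iron and heme genes were higher in dendritic cells for 10 of 25 and in the macrophage-labelled libraries for 4 (Tfr2, Lcn2, Hp and Steap3). The calls of Hp and Steap3 were lost under 9 and 14 of 22 alternatives (limma adjusted p up to 0.189 and 0.234). Tfr2, a transferrin receptor gene of red cell precursors, stood at 0.321, 0.739 and 0.256 CPM against 31.98, 19.3 and 15.1 CPM. Tfr2 passed the filter through the macrophage-labelled libraries alone. Without macrophage replicate 2, and with the same genes tested, 6 iron and heme genes were higher in dendritic cells. Genes of prostaglandin and leukotriene metabolism were higher in dendritic cells for 8 of 19 and in the macrophage-labelled libraries for 6 (3 without macrophage replicate 1 and with the same genes tested). Pla2g7, which breaks down platelet-activating factor, stood at 37.3, 51.1 and 59.4 CPM against 3.40, 2.98 and 7.60 CPM, and Alox15, a lipoxygenase of eosinophils and resident macrophages, at 1.12, 1.08 and 1.33 CPM against 22.6, 63.1 and 109.6 CPM. Glycolysis genes were higher in each population for 6 of 25, with Slc2a6 at 19.5, 23.3 and 16.6 CPM against 2.42, 2.86 and 6.80 CPM and the lactate transporter gene Slc16a1 at 5.20, 8.97 and 14.1 CPM against 43.7, 31.4 and 53.2 CPM. Without macrophage replicate 1, and with the same genes tested, 3 glycolysis genes were higher in the macrophage-labelled libraries. Of 27 immediate early genes, which respond to handling as well as to signals, 4 were higher in dendritic cells (Klf4, Fosl2, Atf3 and Egr2) and 6 in the macrophage-labelled libraries. The calls of Atf3 and Egr2 were lost under 1 and 6 of 22 alternatives (limma adjusted p up to 0.081 and 0.146). Fosl2 stood at 84.995, 116 and 113 CPM against 31.3, 27.3 and 30.3 CPM and Dusp2 at 9.42, 8.97 and 4.60 CPM against 38.8, 40.4 and 21.97 CPM, while Fos, chosen after its values were seen, did not pass, at 206, 98.2 and 100.3 CPM against 141, 287 and 165 CPM. The balance of calls in several lists depends on the scaling. With median centring, 10 integrin and adhesion genes were higher in dendritic cells and 5 in the macrophage-labelled libraries. The counts in that order were 7 and 3 for immediate early genes, 11 and 2 for iron and heme genes, 7 and 4 for glycolysis, 5 and 3 for cytokines, 4 and 2 for chemokines and 5 and 3 for plasmacytoid dendritic cell genes.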

How the data were processed

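RNA from sorted marrow cells was sequenced after ribosomal RNA depletion, per the labels' protocols. The submitters' processing notes name mm10, STAR 2.5.3a and Partek; for the annotation, the strand setting and any filter the sources used here give nothing. The authors deposited 1 value per gene and library, taken here as CPM: low values fall on whole steps (87.6% to 91.5% of values up to 50 steps lie within 0.05 of a step), although the table is named for another unit. Too few values came out whole to recover counts. The value 0.0001 is the lowest listed.

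Genes with at least 1 CPM in at least 3 of the 6 libraries were tested with limma 3.58.1 (R 4.3.3), with eBayes following the trend of variance with level, on log2(CPM + 1). Tests were two-sided, and p-values were adjusted by Benjamini-Hochberg over every gene tested. A log2 difference is on that scale and understates the change of low genes. Values in a sentence run from replicate 1 to 3, dendritic cells before macrophage-labelled libraries, with n = 3 per group. The code of the fit was run on simulated data with far fewer changed genes than were called here. That run checks the code and gives no error rate for these calls. The 41 lists are described by counts and medians only, without Cx3cr1, Itgax and Siglec1.

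The genes named were the 15 largest differences in each direction (called, not overlapping, mean of at least 5 CPM), up to 4 members per list by p-value, the gate genes, and the marker list members with the highest level in each group. Some genes that the rule names are not reported here. Other genes, including members named to spell out a count, were chosen after their values were seen. Members, lists and tests were chosen with earlier results of these data known. Replicate numbers were not taken as pairs, since deviations of same-numbered libraries correlated at −0.06, −0.21 and 0.04. Alternatives covered the pseudocount, filter, scaling, trend, monocytes in the fit, a replicate block and leaving out each library, the last also with the same genes tested, which was added after seeing the data.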

Additional observations from a re-analysis of the deposited data

How the results depend on the processing

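Of 204 genes named and called, 164 kept their call under each of the 22 alternatives in which they were tested, 55 of the 204 being left untested by at least 1. None changed direction, which the alternatives in filter, trend, replicate block and added monocytes could not show, since they leave the log2 difference as it was. The calls of Atf3, Atf6, Ccl4, Ccr1, Cd300lf, Cd40, Cd74, Chil3, Cr2, Csf1, Ctso, Cxcl12, Ddx58, Egr2, Hp, Hsp90b1, Il15, Il7r, Irf7, Isg20, Itgb3, Kit, Klrd1, Ly75, Mpeg1, Osm, Pacsin1, Pf4, Pglyrp1, Ppt1, Scarf1, Siglech, Steap3, Timd4, Tnfsf13, Tnfsf13b, Tyro3, Vsir, Xbp1 and Zbtb46 were lost under 1 or more. As deposited, 3777 genes were called, 1205 higher in dendritic cells and 2572 in the macrophage-labelled libraries; in that order the counts were 2208, 965 and 1243 for genes with at least 10 CPM (fewer genes tested), 4041, 2153 and 1888 with median centring, 3860, 1928 and 1932 with quantile normalization and 5266, 1360 and 3906 with a common total. With the replicate block the counts were 3292, 1035 and 2257, although the numbers were not taken as pairs. With each library left out in turn, the counts lay at 2101 to 3506 in all, 816 to 1307 and 1108 to 2566, and with the same genes tested at 2597 to 3600, 887 to 1375 and 1589 to 2589. The lowest count of genes higher in the macrophage-labelled libraries came without macrophage replicate 1 both times. In the former case the filter passed 11591, 11611 and 11593 genes without macrophage replicates 1, 2 and 3. Each time it left genes seen in the other macrophage-labelled libraries alone untested, and the cause of the lowest count was not tested. Sign changes occurred in genes that were not called, namely Clec9a (log2 difference −0.015, then 0.24 with median centring, −0.60 to 0.63 with a library left out and 0.13 without dendritic cell replicate 1), Col1a1 (log2 difference −1.19, then −1.90 to 0.14 with a library left out), Kdr (log2 difference −0.12, then 0.13 with median centring, 0.56 with quantile normalization, −0.36 to 0.018 with a library left out), Mki67 (log2 difference −0.00067, then 0.26 with median centring, −0.16 to 0.15 with a library left out and 0.098 without dendritic cell replicate 1), Vcam1 (log2 difference −0.41, then −0.85 to 0.16 with a library left out) and Wdfy4 (log2 difference 0.11, then −0.35 with quantile normalization, −0.18 to 0.39 with a library left out). The cause of these changes was not tested.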

Other observations

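Ctsk, Acp5 and Atp6v0d2, genes known from bone-resorbing osteoclasts, were among the lysosomal genes higher in dendritic cells. After their values were seen, a list of 20 osteoclast genes was drawn up, so its counts are a description and no support for a direction. Of 17 tested, 13 were higher in dendritic cells and 2 in the macrophage-labelled libraries. Acp5, which encodes tartrate-resistant acid phosphatase, stood at 144, 139 and 249 CPM in the dendritic cell libraries and 7.48, 4.15 and 30.5 CPM in the macrophage-labelled libraries, a log2 difference of 3.95 ± 0.45 (SE, limma adjusted p = 2.1e-06). Tnfrsf11a, which encodes the receptor RANK, had a log2 difference of 2.79 ± 0.29. The summed level of the list was 1042, 1170 and 1694 CPM in the dendritic cell libraries and 496, 424 and 644 CPM in the macrophage-labelled libraries, with dendritic cell replicate 3 the highest. Calcr, the calcitonin receptor gene of mature osteoclasts, stayed at or under 0.448 CPM in the 6 libraries. Itgb3, an integrin gene of both osteoclasts and platelets, went the other way, at 17.4, 23.2 and 31.8 CPM against 47.98, 72.3 and 33.9 CPM (a call lost under 7 of 22 alternatives, limma adjusted p up to 0.083), and so did Car2, given with the genes of red cells.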
